A study of Mus musculus with 8 samples.

Results

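The genes described here are 8 genes of osteoclast formation and macrophage fusion: Dcstamp, Ocstamp, Nfatc1, Ctsk, Acp5, Itgb3, Oscar and Atp6v0d2. They were chosen by symbol, with no threshold on a measured value, but earlier results of these data were already known. Of the 8 symbols, 7 were listed in both of the authors' deposited tables, which held 13676 genes for cells given PBS, 14193 genes for cells given IL-4, and 13384 genes in common. Oscar, a receptor that co-stimulates osteoclast precursors, was listed in neither, so no value is given for it; the lowest mean level in the tables was 2.14 normalized counts with PBS and 1.68 with IL-4.

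The study used bone-marrow-derived macrophages of 12-week-old female mice, 2 labelled WT and 2 labelled NIK KO. NIK, encoded by Map3k14, is the kinase that starts the noncanonical NF-kB pathway. Marrow depleted of red cells was grown for 7 days in 30% medium conditioned by L929 cells, which supplies M-CSF, and was then replated in 5% of that medium. Each mouse's macrophages received either PBS or IL-4 at 20 ng/mL, and RNA was taken after 6 hours, which gave 8 libraries in 4 groups of 2. The groups were WT with PBS, WT with IL-4, NIK KO with PBS and NIK KO with IL-4. The same 4 mice therefore stand behind both treatments. The labels name neither the knockout allele, nor its deleted exons, nor the strain, nor whether controls were littermates. The protocols name L929 medium and IL-4 as the added factors and do not mention RANKL, so these are macrophage cultures and not osteoclast cultures.

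Osteoclasts are the multinucleated cells that resorb bone, and they form when macrophage precursors fuse. M-CSF keeps the precursors alive, and RANKL, acting through its receptor RANK and the adaptor TRAF6, switches on NF-kB, AP-1 and then the transcription factor NFATc1, which drives the fusion and resorption genes. NIK acts in the noncanonical arm of this signal by promoting the processing of p100, the product of Nfkb2. IL-4, acting through STAT6, is known both to restrain osteoclast formation driven by RANKL and to induce macrophages to fuse into multinucleated giant cells, a process that shares DC-STAMP with osteoclast fusion.

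The labels were first checked on the targeted gene. In the authors' deposited tables Map3k14 (ENSMUSG00000020941) had mean levels of 425 normalized counts in WT and 902 in the libraries labelled NIK KO with PBS, and of 418 and 832 with IL-4. It was thus higher, not lower, in the libraries labelled NIK KO, by 1.09 ± 0.28 (log2, SE) with PBS (DESeq2 Wald test, Benjamini-Hochberg adjusted p = 0.176) and by 0.99 ± 0.22 with IL-4 (adjusted p = 0.00782). With a t distribution with 2 degrees of freedom in place of the normal, no gene was called in either table. Map3k14 with IL-4 (Wald score on that distribution, adjusted p = 0.99998) lost its call with all others, so that setting cannot tell which calls are firm. Which part of the gene is deleted is not named in the labels, so counts from the rest of the transcript cannot settle this check. Every direction below is therefore that of libraries so labelled. The direction of the IL-4 table comes from its name, and the same direction was assumed for the PBS table. The tables' very large fold changes for Kpna2 (log2 of -4.58 with PBS and -3.93 with IL-4) and Gm10184 (13.84 and 8.44) have the same sign in both. The tables hold 1 summary per gene and no value per library, so only group means can be given, and the sequencing depth of each library is unknown. Group means were computed from each gene's deposited mean and fold change.

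Markers of macrophages were abundant: all 10 were listed, led by Lyz2 and Csf1r, and their levels summed to between 472457 and 644184 normalized counts over the 4 groups. Of 9 markers of the mature osteoclast, Ctsk, Acp5 and Ocstamp among them, 8 were listed, led by Tcirg1 and Clcn7. Their levels summed to 15759 and 15467 normalized counts in WT and labelled NIK KO with PBS, and to 14846 and 15393 with IL-4. Tcirg1 (means of 10916 with PBS and 10374 with IL-4) and Clcn7 (3651 and 3644) made up most of these sums. The sums therefore say little of the less abundant markers. As deposited, 2 of the 8, Ocstamp and Car2, stood at least 2-fold higher with IL-4 in both genotypes. Of the 8, 1 was higher in labelled NIK KO with PBS and 3 with IL-4, beside 48.3% and 48.9% of every gene tested. None of the 8 was called. Calcr, the calcitonin receptor, was in neither table. In bulk RNA, fewer cells of a type and less RNA per cell cannot be told apart.

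**Figure D1:**
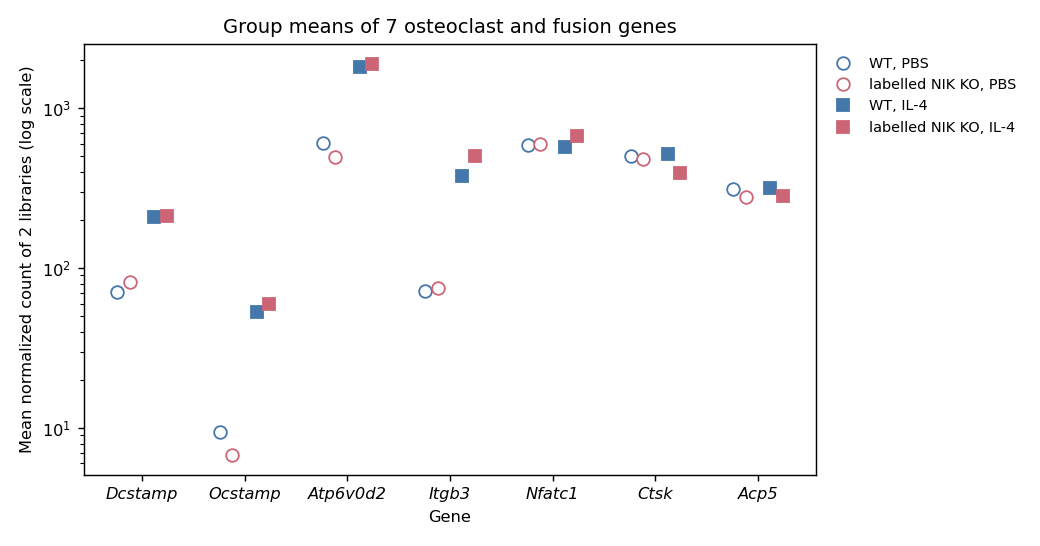
Mean level (normalized counts, log10 axis) of each of the 7 listed genes in the 4 groups, WT and labelled NIK KO with PBS or IL-4; each point is the mean of 2 libraries recovered from the deposited tables. Dcstamp, Ocstamp, Itgb3 and Atp6v0d2 stand higher in both groups given IL-4, whereas Nfatc1, Ctsk and Acp5 sit near the same level in all 4 groups.

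Dcstamp, Ocstamp, Itgb3 and Atp6v0d2 stood at between 2.58 and 8.81 times their PBS level with IL-4 (2.15 to 7.33 after correction for a shift of the whole table). None of them differed by a called amount between genotypes. Of the 13676 genes tested with PBS, 0.0366% were called at an adjusted p below 0.05, and 0.125% of the genes with an adjusted p were called with IL-4. None of the 7 listed genes was called with either treatment. At an unadjusted p below 0.05 the counts were also 0 of 7 and 0 of 7, against a background of 1.24% (PBS) and 2.95% (IL-4) over every gene tested. The deposited adjusted p (DESeq2 Wald test, Benjamini-Hochberg) was 0.999994 for each of the 7 with PBS and 0.99996 with IL-4.

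Dcstamp (ENSMUSG00000022303) encodes DC-STAMP, the membrane protein needed for fusion of both osteoclasts and giant cells. Its mean level was 70.5 normalized counts in WT and 82.4 in labelled NIK KO with PBS, and 208 and 213 with IL-4. In the authors' deposited tables the log2 difference between genotypes was 0.23 ± 0.53 (SE) with PBS (p = 0.668) and 0.03 ± 0.31 with IL-4 (p = 0.912). The 95% interval of the ratio of labelled NIK KO to WT ran from 0.572 to 2.39 with PBS and from 0.675 to 1.55 with IL-4. Both intervals include 1, and the one with IL-4 is the narrower.

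Ocstamp (ENSMUSG00000027670) encodes OC-STAMP, a second membrane protein of osteoclast fusion, and was the lowest of the 7. Its mean level was 9.42 normalized counts in WT and 6.76 in labelled NIK KO with PBS, and 53.1 and 59.5 with IL-4. The authors' deposited tables gave a log2 difference between genotypes of -0.48 ± 1.39 with PBS (p = 0.730) and 0.17 ± 0.53 with IL-4 (p = 0.754). With PBS the interval of the ratio, from 0.109 to 4.74, was too wide to detect even a several-fold difference. Of the gene's longest transcript, 5.46% of 31-base words also occurred in other transcripts, the most for any of the 7, with Gm37266 sharing the most.

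Itgb3 (ENSMUSG00000020689) encodes integrin β3, which pairs with the αv chain (Itgav) into the vitronectin receptor by which osteoclasts hold onto bone. Its mean level was 71.6 normalized counts in WT and 74.7 in labelled NIK KO with PBS, and 378 and 504 with IL-4. In the authors' deposited tables the log2 difference between genotypes was 0.06 ± 0.54 with PBS (p = 0.907) and 0.41 ± 0.29 with IL-4 (p = 0.156). The latter was the smallest unadjusted p among the 14 values of the 7 genes, and its ratio of 1.33 had a 95% interval from 0.896 to 1.98. The SE of 0.29 was above the median of 0.244 for genes of similar level with IL-4. Itgav moved little between groups, with an IL-4 to PBS ratio of 1.39 in WT and 1.44 in labelled NIK KO. Integrin β3 is also a platelet protein: of 9 megakaryocyte and platelet markers 5 were listed, Gp1bb, Gp9 and Gp6 were among those in neither table, Pf4 was the highest, followed by Itga2b with PBS and Ppbp with IL-4, and the summed level was 761 and 893 with PBS and 996 and 1121 with IL-4 in WT and labelled NIK KO. The part of these markers in the level of Itgb3 was not tested.

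Atp6v0d2 (ENSMUSG00000028238) encodes the d2 subunit of the proton pump (V-ATPase), which is enriched in osteoclasts and is needed for their fusion. It was the most abundant of the 4 genes that stood higher with IL-4, at 608 normalized counts in WT and 493 in labelled NIK KO with PBS, and 1823 and 1904 with IL-4. The authors' deposited tables gave a log2 difference between genotypes of -0.30 ± 0.30 with PBS (p = 0.311) and 0.06 ± 0.21 with IL-4 (p = 0.767). The ratio of labelled NIK KO to WT lay between 0.540 and 1.22 with PBS and between 0.783 and 1.39 with IL-4 (95% intervals). This was the tightest interval of the 7 with IL-4. Its widely expressed counterpart Atp6v0d1 had IL-4 to PBS ratios of 1.30 and 1.24.

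The transcription factor and the resorption enzymes were expressed at between 278 and 667 normalized counts in every group, and none differed by a called amount between genotypes. Nfatc1 (ENSMUSG00000033016), the factor at the head of the osteoclast programme, had means of 588 in WT and 594 in labelled NIK KO with PBS, and of 576 and 667 with IL-4. In the authors' deposited tables its log2 difference between genotypes was 0.02 ± 0.28 with PBS (p = 0.955) and 0.21 ± 0.22 with IL-4 (p = 0.328). The 95% interval of the ratio was 0.692 to 1.48 with PBS and 0.862 to 1.56 with IL-4.

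Ctsk (ENSMUSG00000028111) encodes cathepsin K, the protease that degrades bone collagen. Its means were 505 normalized counts in WT and 484 in labelled NIK KO with PBS, and 514 and 393 with IL-4. The authors' deposited tables gave a log2 difference between genotypes of -0.06 ± 0.35 with PBS (p = 0.859) and -0.39 ± 0.30 with IL-4 (p = 0.200). The interval of the ratio with IL-4, 0.507 to 1.15, includes no difference. Its SE with IL-4 was 0.30, against a median of 0.242 for genes of similar level.

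Cathepsin K is also made by fibroblasts, and most listed markers of fibroblasts and osteoblasts moved in the same direction with IL-4. Of 14 such markers 9 were listed with IL-4, and 7 of the 9 were lower in labelled NIK KO, with a median log2 difference of -1.52 in the authors' deposited table. The 2 that were higher were Runx2 (0.25 ± 0.42) and Pdgfrb (0.26 ± 0.84). The collagen gene Col3a1 was called, at 129 normalized counts in WT and 25.6 in labelled NIK KO (log2 difference of -2.34 ± 0.53, DESeq2 Wald test, adjusted p = 0.0107). With the Wald score on the t distribution this call was lost (adjusted p = 0.99998), as was every other call. The markers summed to 548 normalized counts in WT and 292 in labelled NIK KO with IL-4, and to 186 and 173 with PBS. The most abundant of the list was Runx2, followed by Col1a2 with PBS and Col3a1 with IL-4, and Thy1, Sp7, Bglap, Ibsp and Alpl were in neither table. The part of fibroblasts and osteoblasts in the lower mean of Ctsk was not tested. Erythroid markers were lower in labelled NIK KO with IL-4 as well, 4 of 6 listed, with a median log2 difference of -0.999.

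Acp5 (ENSMUSG00000001348) encodes tartrate-resistant acid phosphatase, the classic stain for osteoclasts, which macrophages also make. Its means were 314 normalized counts in WT and 278 in labelled NIK KO with PBS, and 317 and 283 with IL-4. In the authors' deposited tables the log2 difference between genotypes was -0.18 ± 0.36 with PBS (p = 0.622) and -0.16 ± 0.31 with IL-4 (p = 0.601). The 95% interval of the ratio was 0.545 to 1.44 with PBS and 0.585 to 1.36 with IL-4.

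**Figure D2:**
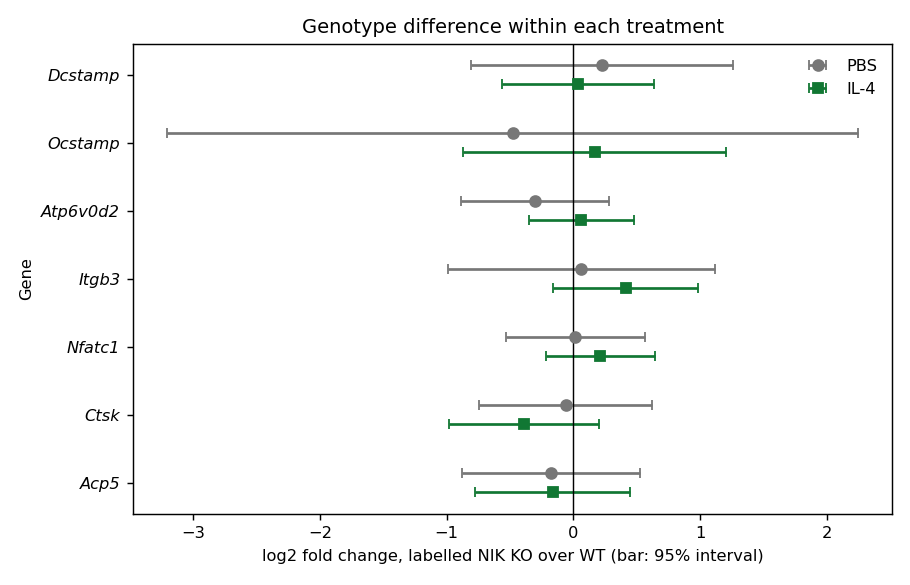
Log2 fold change of labelled NIK KO over WT for each of the 7 listed genes, with PBS (circles) and with IL-4 (squares); bars are 95% intervals from the deposited SE. Every interval spans 0, and that of Ocstamp with PBS is the widest.

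Across the 7 genes, 3 were higher and 4 lower in labelled NIK KO with PBS, and 5 were higher and 2 lower with IL-4. The median log2 difference in the authors' deposited tables was -0.06 with PBS and 0.06 with IL-4, beside -0.01 in each table over every gene tested. Of every gene tested, 48.3% were higher with PBS and 48.9% with IL-4.

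To let the reader see the control regions of the resorption enzymes, the bases just upstream of their starts are shown. They are RefSeq promoter windows of build GRCm38.p6, which is not the build named in the submitters' processing notes (GRCm39). Of the 8 genes 3 had a window in the RefSeq table: Ctsk, Acp5 and Oscar. Shown are the 250 bases upstream of the start of Ctsk (chr3:95498960-95499209, plus strand) and of the last of the 3 listed starts of Acp5 (chr9:22130599-22130848, minus strand), 5′ to 3′. Capitals mark matches on either strand to short motifs of NFAT (GGAAA), PU.1 (GAGGAA), AP-1 (TGANTCA) and STAT6 (TTC and GAA with any 4 bases between).
Ctsk: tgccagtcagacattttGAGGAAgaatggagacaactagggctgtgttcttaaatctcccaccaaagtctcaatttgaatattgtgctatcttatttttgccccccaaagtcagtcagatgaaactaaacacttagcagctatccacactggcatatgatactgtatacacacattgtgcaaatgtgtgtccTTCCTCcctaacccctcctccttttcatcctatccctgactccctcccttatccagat
Acp5: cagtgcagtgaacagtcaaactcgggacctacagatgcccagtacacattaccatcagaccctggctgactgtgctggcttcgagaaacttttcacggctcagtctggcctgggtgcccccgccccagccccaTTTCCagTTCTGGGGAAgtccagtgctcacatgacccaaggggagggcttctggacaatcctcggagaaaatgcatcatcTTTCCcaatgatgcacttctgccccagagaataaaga
In the Ctsk window PU.1's motif matched 2 times and the other 3 motifs did not match. Acp5 has 3 windows. In the one shown NFAT's motif matched 2 times and STAT6's 1 time, the latter overlapping no NFAT match. Each of the other 2 windows held 1 NFAT match and 0 matches to STAT6's motif. Such short motifs are common: of 32817 distinct windows of this length, 55.6% hold the NFAT motif, 23.3% that of PU.1, 6.75% that of AP-1 and 5.85% that of STAT6. A match is a run of letters and not a shown binding site.

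The comparison of treatments was drawn from 2 separately normalized tables, so it is a description with no test. Over 9148 genes of mean 100 or more in both tables, the median ratio of IL-4 to PBS in WT was 1.20 (0.26 in log2), and ratios are also given divided by that shift. Of the 13384 genes in both tables, 4.89% were at least 2-fold higher with IL-4 in both genotypes as deposited, and 3.34% and 3.12% once the tables were scaled to the same sum or the same median. Among the 7 genes, 4 passed that fold under all 3 scalings: Dcstamp, Ocstamp, Itgb3 and Atp6v0d2. At least 2-fold lower levels were found for 1.26% of genes and for 0 of the 7.

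Itgb3 had an IL-4 to PBS ratio of 5.28 in WT and 6.74 in labelled NIK KO, or 4.40 and 5.61 after the shift. Its approximate error was 0.43 in log2. Those ratios ranked it 88 in WT and 59 in labelled NIK KO among the 11668 genes of mean 10 or more in both tables. Ocstamp had the highest ratios, 5.63 and 8.81 (4.68 and 7.33 after the shift), from a low PBS level and with an approximate error of 1.05 in log2. Dcstamp had ratios of 2.95 in WT and 2.58 in labelled NIK KO, or 2.46 and 2.15 after the shift. Its approximate error was 0.43 in log2, so after the shift its margin over 2-fold lay within that error in both genotypes. Atp6v0d2 had ratios of 2.997 and 3.86, or 2.49 and 3.21 after the shift, with the smallest approximate error of these 4 genes, 0.26. By an approximate 95% range, the margin over 2-fold after the shift also lay within error for Ocstamp in both genotypes. The same held for Atp6v0d2 in WT, and only Itgb3 lay beyond that range in both genotypes. So the membrane proteins of fusion, the pump subunit and the integrin chain stood higher with IL-4 in both genotypes.

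Nfatc1, Ctsk and Acp5 did not share that pattern. As deposited, the IL-4 to PBS ratio of Nfatc1 was 0.980 in WT and 1.12 in labelled NIK KO, and after the shift 0.815 and 0.935, so its direction in labelled NIK KO depends on the scaling. The ratio of Ctsk was 1.02 and 0.813, or 0.847 and 0.676 after the shift, and its direction in WT flips likewise. The ratio of Acp5 was 1.01 and 1.02, or 0.841 and 0.849 after the shift, and its direction flips in both genotypes. As deposited, the level of Nfatc1 differed between treatments by less than its approximate error of 0.25 (log2) in both genotypes, and after the shift by more than that in WT. Targets of NFATc1 known from osteoclasts were found on both sides: Dcstamp, Ocstamp, Itgb3 and Atp6v0d2 among the genes with high ratios, and Ctsk and Acp5 among those without.

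**Figure D3:**
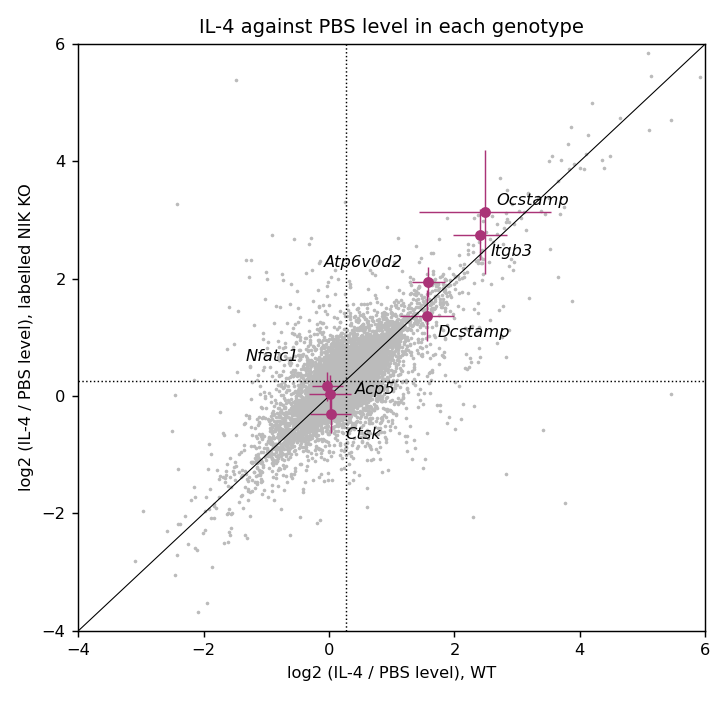
Log2 ratio of the mean level with IL-4 to that with PBS, in WT (horizontal) against labelled NIK KO (vertical). Grey points are genes of mean 10 or more in both tables, 11661 of 11668 lying inside the axes, named points are the 7 listed genes with approximate errors, dotted lines mark the median shift of 0.26 and the solid line marks equal ratios. Dcstamp, Ocstamp, Itgb3 and Atp6v0d2 stand toward the upper right, and Nfatc1, Ctsk and Acp5 lie near the bulk of genes.

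Whether the genotype difference itself changed between treatments was tested for each gene from the difference of the deposited fold changes. Of 13384 genes, 0.0149% (2 genes) were called and 0.867% passed an unadjusted p of 0.05; of the 7 genes none did either. The Benjamini-Hochberg adjusted p = 0.9999 for each of the 7 (z test). Atp6v0d2 had a difference with IL-4 minus that with PBS of 0.37 ± 0.37 (log2, SE), with a 95% interval from -0.35 to 1.08. For Itgb3 it was 0.35 ± 0.61 (interval -0.85 to 1.55) and for Ctsk -0.33 ± 0.46 (-1.23 to 0.58). For Nfatc1 it was 0.20 ± 0.35 (-0.50 to 0.89), for Dcstamp -0.19 ± 0.61 (-1.39 to 1.00) and for Acp5 0.01 ± 0.47 (-0.92 to 0.94). For Ocstamp, the least precise, it was 0.65 ± 1.49 (-2.27 to 3.56). The errors were taken as independent although the same mice stand behind both tables; with a correlation of 0.5 between them, 20 genes were called, none of them among the 7.

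Per kilobase of the longest annotated transcript, the order of mean levels in WT with PBS was Ctsk (334 normalized counts per kb), Atp6v0d2 (240), Acp5 (217), Nfatc1 (123), Dcstamp (35.3), Itgb3 (12.4) and Ocstamp (2.58). Neighbours in that order whose difference lay within its approximate 95% range were Ctsk and Atp6v0d2, and Atp6v0d2 and Acp5. With IL-4, WT cells had Atp6v0d2 (718 per kb) ahead of Ctsk (340.1), Acp5 (219), Nfatc1 (120.0), Dcstamp (104), Itgb3 (65.4) and Ocstamp (14.5), and Nfatc1 and Dcstamp were the neighbours within error. In labelled NIK KO with PBS the order was the same as in WT, from Ctsk (320.0 per kb) to Ocstamp (1.85), with Atp6v0d2 (194) and Acp5 (192) within error of each other. In labelled NIK KO with IL-4 the order was again that of WT, from Atp6v0d2 (749.9 per kb) to Ocstamp (16.3), but the 5 genes from Ctsk (260.1) to Itgb3 (87.1) each lay within error of the next. Dcstamp, below Nfatc1 beyond error with PBS, thus lay within error of it with IL-4 in both genotypes.

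For each gene of mean 10 or more in both tables, the gene whose 4 group means ran most alike was found by the distance between log2 group means centred on each gene's own mean. Among 11668 genes and over 4 groups, the nearest to Dcstamp was Acss1 (distance 0.0554) and the nearest to Atp6v0d2 was Ddhd1 (0.0454). The nearest to Itgb3 was Cdcp1 at 0.153, and 36 genes lay within 0.5 of Itgb3, against 344 for Dcstamp and 158 for Atp6v0d2. Nfatc1 was nearest to Sh3bp1 (0.0157), Ctsk to Haghl (0.0313) and Acp5 to Rpl18 (0.0259). Within 0.5 of these 3 lay 7276, 4196 and 6821 genes, so their nearly flat pattern was common. Ocstamp was below a mean of 10 with PBS and was left out. Each nearest distance was below the approximate error of that gene's IL-4 to PBS ratio (0.25 to 0.43 in log2). Which gene is nearest is therefore not settled.

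The receptors and adaptors of RANK and M-CSF, which lie upstream of the 8 genes, showed no called difference between genotypes. With PBS 10 were listed, 7 higher and 3 lower in labelled NIK KO, with a median log2 difference of 0.15; with IL-4 7 of 11 were higher and 4 lower, with a median of 0.08 (authors' deposited tables). None passed an unadjusted p of 0.05. For this list and each one below, the shares over every gene tested serve as background. Of those genes, 48.3% were higher with PBS and 48.9% with IL-4, and 1.24% and 2.95% passed that p (DESeq2 Wald test). No list was tested as a set. Tnfrsf11a, encoding RANK, had means of 807 and 986 normalized counts with PBS and 620 and 720 with IL-4 in WT and labelled NIK KO. Its log2 differences in the authors' deposited tables were 0.29 ± 0.29 and 0.22 ± 0.26. Csf1r, the M-CSF receptor, differed by 0.06 ± 0.23 with PBS and 0.27 ± 0.15 with IL-4. The adaptors Tab2 (0.34 ± 0.24 and 0.08 ± 0.16) and Gab2 (0.29 ± 0.29 and 0.26 ± 0.21) were likewise not called. Tnfsf11, which encodes RANKL, was in neither table. Between treatments 0 of 10 reached 2-fold in both genotypes, and Tnfrsf11a had IL-4 to PBS ratios of 0.769 and 0.730.

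The 8 genes of noncanonical NF-kB included the one called gene of the pathway lists, Map3k14 itself, with IL-4. Like every other call, it was lost with the t distribution. With PBS 2 of the 8 were higher and 6 lower in labelled NIK KO, and with IL-4 4 were higher and 4 lower. The medians were -0.16 and -0.04. Nfkb2, which encodes p100, differed by -0.51 ± 0.34 with PBS and -0.13 ± 0.25 with IL-4 in the authors' deposited tables. Traf3, which holds NIK in check, differed by -0.10 ± 0.29 and 0.19 ± 0.19. None of the 8 stood 2-fold higher with IL-4 in both genotypes.

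The co-stimulation and calcium genes, which carry the signal to calcineurin and NFATc1, held no called gene. Of 13 co-stimulation genes 9 were higher in labelled NIK KO with PBS and 8 with IL-4, with medians of 0.05 and 0.04. Clec5a, a receptor that signals through DAP12, differed by -0.32 ± 0.28 and -0.30 ± 0.20, and the kinase Tec by 0.18 ± 0.29 and 0.25 ± 0.20 (authors' deposited tables). Of 12 calcium genes 8 were higher with PBS and 11 with IL-4, beside 48.3% and 48.9% of every gene tested, with medians of 0.09 and 0.20. Itpr2, a calcium channel of the endoplasmic reticulum, was the 1 gene at an unadjusted p below 0.05, at -0.82 ± 0.36 with PBS (p = 0.0225) against 0.31 ± 0.27 with IL-4 in the authors' deposited tables. The change of 1.13 between treatments was not called (adjusted p = 0.9999, z test). Itpr1 differed by 0.06 ± 0.34 and 0.41 ± 0.23, Plcg2, the phospholipase that generates the channels' ligand, by -0.11 ± 0.25 and 0.26 ± 0.17, the calcineurin subunit Ppp3r1 by 0.40 ± 0.27 and 0.13 ± 0.18, and Creb1 by -0.34 ± 0.34 and 0.34 ± 0.21.

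Transcription factors and repressors of osteoclast genes likewise held no called gene. Of 16 transcription factors 9 were higher in labelled NIK KO with each treatment, with medians of 0.04 and 0.03, and of 11 repressors 8 were higher with each, with medians of 0.07 and 0.12. The AP-1 members Junb (-0.37 ± 0.32 and -0.21 ± 0.20) and Fosl2 (0.04 ± 0.28 and 0.19 ± 0.18) did not pass in the authors' deposited tables, nor did Hes1 (1.30 ± 1.07 and -0.62 ± 0.78). Among repressors, Zbtb7a differed by 0.01 ± 0.24 and 0.32 ± 0.17, Nfkbie by -0.39 ± 0.35 and -0.18 ± 0.30, and the low Bach2 by 0.56 ± 0.99 and 1.78 ± 0.98.

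Between treatments the AP-1 member Fosl2 and the coactivator Ppargc1b stood at least 2-fold higher with IL-4 in both genotypes after the shift, at 2.98 and 3.30 for Fosl2 and 6.21 and 4.21 for Ppargc1b. The repressor Id1 did too, at 2.44 and 2.25. Fos, the AP-1 member that osteoclast formation requires, was lower, at 0.488 in WT and 0.464 in labelled NIK KO after the shift (0.587 and 0.558 as deposited). Ppargc1b, Id1 and Fos were named after their values were seen. As deposited 4 of 16 transcription factors reached 2-fold higher, and 2 of 16 after the shift.

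Attachment and resorption genes gave the setting of Itgb3, Ctsk, Acp5 and Atp6v0d2. Of 17 attachment genes 11 were higher in labelled NIK KO with PBS and 16 with IL-4, beside 48.3% and 48.9% of every gene tested. Their medians were 0.05 and 0.11, and none passed an unadjusted p of 0.05. Whether such a count is unusual for a list was not tested. Integrin β1 (Itgb1) differed by 0.23 ± 0.23 and 0.00 ± 0.15, the GTPase Rac1 by 0.31 ± 0.24 and 0.10 ± 0.15, the adaptor Cbl by 0.24 ± 0.26 and 0.31 ± 0.17, and talin (Tln1), which activates integrins, by -0.12 ± 0.23 and 0.29 ± 0.16 in the authors' deposited tables. After the shift 0 of 17 stood 2-fold higher with IL-4 in both genotypes, and 2 of 17 did as deposited.

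Of 21 genes of acid secretion and resorption 11 were higher and 10 lower in labelled NIK KO with each treatment, with medians of 0.01 and 0.00 in the authors' deposited tables. The anion exchanger Slc4a2 was the 1 gene at an unadjusted p below 0.05, at 0.35 ± 0.17 with IL-4 (p = 0.0421) and -0.12 ± 0.25 with PBS in the authors' deposited tables. Over every gene tested with IL-4, 2.95% passed that threshold. The pump subunits Atp6v1a (-0.04 ± 0.35 and 0.39 ± 0.21) and Atp6v1b2 (0.35 ± 0.24 and 0.04 ± 0.16) and the exchanger Slc9b2 (-0.42 ± 0.40 and -0.09 ± 0.40) did not pass. Between treatments, 1 of 21 stood 2-fold higher in both genotypes as deposited and 0 of 21 after the shift. The 1 gene was Car2, the carbonic anhydrase that supplies protons to the pump, at 5.13 in WT and 2.15 in labelled NIK KO as deposited and 4.27 and 1.79 after the shift; it was named after its values were seen. Tcirg1, the osteoclast pump's a3 subunit, had ratios of 0.925 and 0.976 as deposited.

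**Figure D4:**
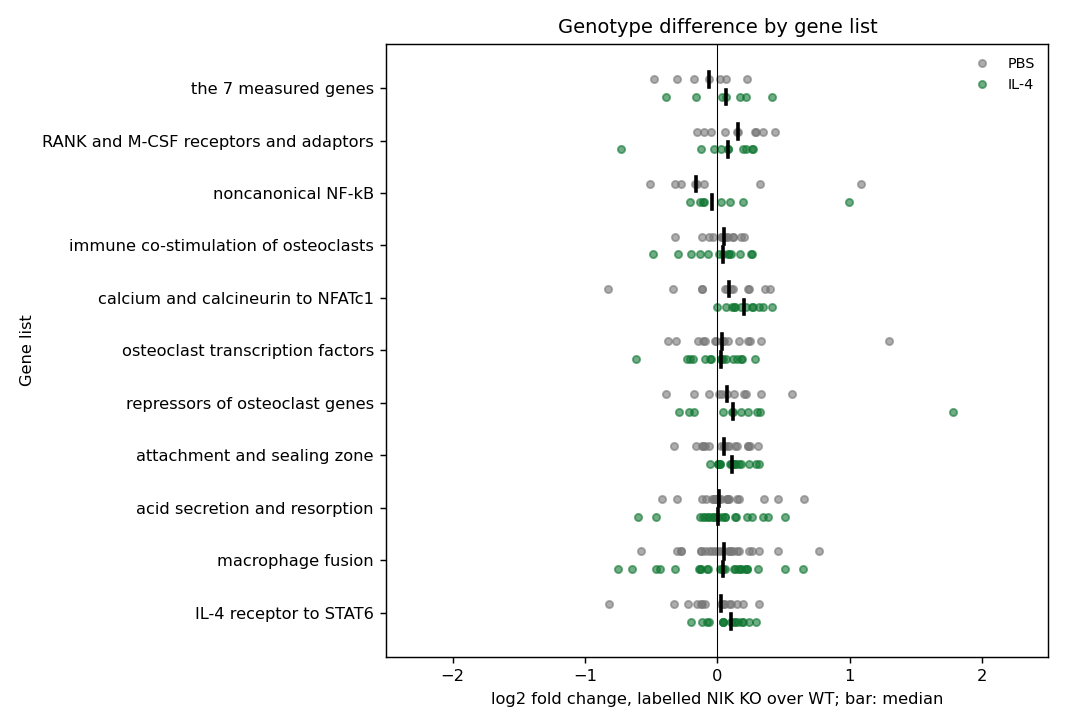
Log2 fold change of labelled NIK KO over WT for each listed gene of the pathway lists, with PBS and with IL-4; each point is 1 gene, the short bars are list medians and 2 points lie outside the axes. The list medians lie between -0.16 and 0.20, and the 2 points of noncanonical NF-kB near 1 are Map3k14.

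Of 25 further genes of macrophage fusion 15 were higher and 10 lower in labelled NIK KO with each treatment, with medians of 0.05 and 0.04 in the authors' deposited tables. Chil3, a chitinase-like protein of macrophages given IL-4, was the 1 gene at an unadjusted p below 0.05, at -0.43 ± 0.18 with IL-4 (p = 0.0139) and 0.31 ± 0.60 with PBS in the authors' deposited tables. Over every gene tested with IL-4, 2.95% passed that threshold. The tetraspanin Cd9 differed by -0.27 ± 0.25 and -0.32 ± 0.17, and Cd200 by 0.77 ± 0.67 and 0.65 ± 0.74. With IL-4, 7 of 25 stood at least 2-fold higher in both genotypes as deposited and 2 of 25 after the shift. These 2 were Cdh1, encoding the adhesion protein E-cadherin (62.1 in WT and 94.6 in labelled NIK KO after the shift), and Chil3 (36.5 and 21.8). The ratios of Cdh1 rest on a low PBS mean of 7.22 normalized counts, with an approximate error of 0.97 in log2. The other 5, Cd44, Cd200r1, Ccl2, Adam9 and Cd36, lay between 1.69 and 1.98 after the shift. The 6 other than Chil3 were named after their values were seen.

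Of 15 genes from the IL-4 receptor to STAT6 and its targets, 9 stood at least 2-fold higher with IL-4 in both genotypes as deposited and 8 after the shift, and none was called between genotypes. These were targets and feedback genes such as Arg1, Retnla, Mrc1 and Socs1, and not the receptor or STAT6: after the shift Il4ra had ratios of 0.942 and 1.08, Stat6 of 0.845 and 1.05, and Il13ra1 of 0.584 and 0.540. Retnla, Mrc1, Socs1, Stat6 and Il13ra1 were named after their values were seen. Arg1, the arginase of macrophages given IL-4, had IL-4 to PBS ratios of 268 in WT and 413 in labelled NIK KO, and differed between genotypes by -0.82 ± 0.78 with PBS and -0.20 ± 0.15 with IL-4 in the authors' deposited tables. The ratios of Arg1 rest on a PBS mean of 23.9 normalized counts, with an approximate error of 0.57 in log2. Its genotype difference changed between treatments by 0.62 ± 0.80 and was not called. Pparg, the nuclear receptor downstream of STAT6, differed by 0.31 ± 0.35 and 0.16 ± 0.26. The receptor chain Il4ra (0.09 ± 0.24 and 0.29 ± 0.17) and the kinase Jak1 (0.03 ± 0.24 and 0.24 ± 0.16) were not called. The median log2 ratio of IL-4 to PBS was 1.42 in WT and 1.52 in labelled NIK KO for these genes, 1.56 and 1.37 for the 7 osteoclast and fusion genes, and 0.27 and 0.27 for every gene in both tables. The median of the 7 was the value of Dcstamp, with Nfatc1, Ctsk and Acp5 below it and Ocstamp, Itgb3 and Atp6v0d2 above.

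**Figure D5:**
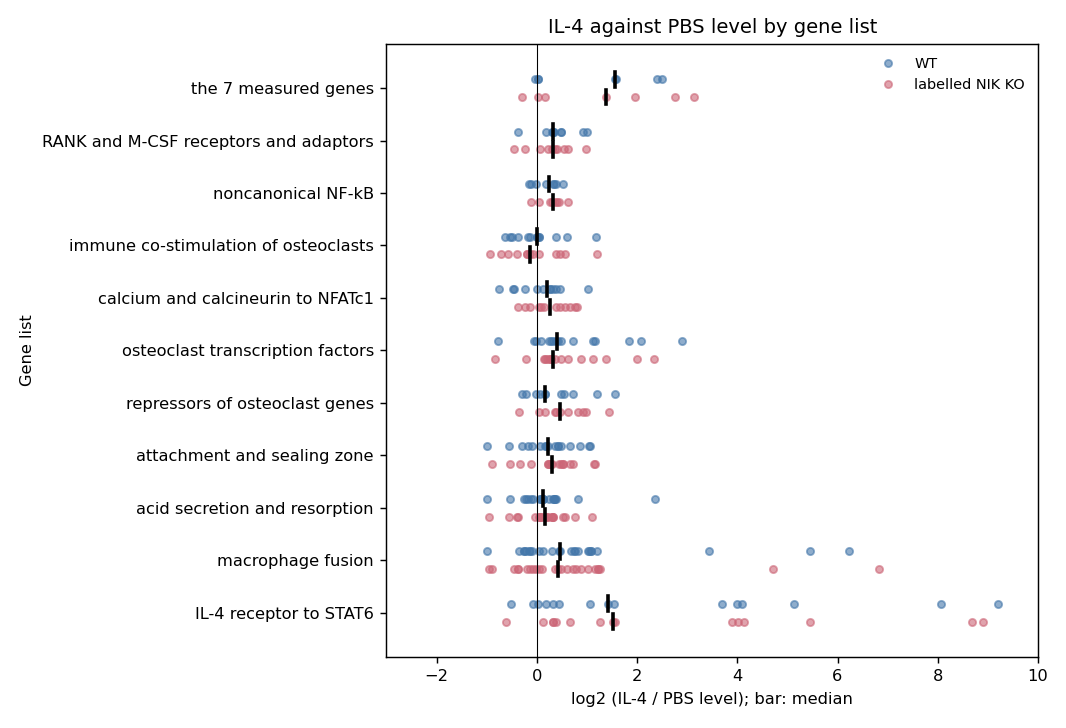
Log2 ratio of mean level with IL-4 to that with PBS for each gene of the pathway lists, in WT and in labelled NIK KO; each point is 1 gene, the short bars are list medians and the thin line marks 0. The STAT6 genes reach the highest ratios, and their medians and those of the 7 genes (1.37 to 1.56) stand apart from the other lists' medians, which lie between -0.14 and 0.47. The median of the 7 genes is the value of Dcstamp, and Nfatc1, Ctsk and Acp5 lie well below it.

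Markers of other cells were low beside those of macrophages. Summed levels in WT and labelled NIK KO were 801 and 844 normalized counts with PBS and 2112 and 2741 with IL-4 for neutrophil markers, led by Csf3r and S100a8, and 103 and 103 with PBS and 634 and 538 with IL-4 for dendritic cell markers, led by Ccr7 and Batf3 with PBS and by Batf3 and Zbtb46 with IL-4. Those of erythroid markers, led by Hba-a2 and Hba-a1, were 96.1 and 103 with PBS and 344 and 158 with IL-4, and those of T and B cell markers, with Cd4, Lck and Cd79b the highest, 39.7 and 43.7 with PBS and 78.5 and 59.7 with IL-4, with Cd3e, Cd3g, Cd3d, Cd8a and Ms4a1 among those in neither table. The neutrophil markers Ly6g and Elane were in neither table as well. Csf3r, at a mean of 2219 normalized counts with IL-4, made up most of the neutrophil sum there. The members of these lists did not move alike. After the shift Csf3r stood at 2.70 and 3.33 times its PBS level in WT and labelled NIK KO and S100a8 at 0.849 and 0.706. Batf3 stood at 17.1 and 13.6, Ccr7 at 0.896 and 0.766, and Xcr1, named after its values were seen, at 0.327 and 0.363. Each of these sums was higher with IL-4 in both genotypes, as were those of the megakaryocyte and fibroblast markers and the levels of Dcstamp, Ocstamp, Itgb3 and Atp6v0d2, and their part in those levels was not tested.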

How the data were processed

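The data were 2 results tables deposited by the authors, 1 per treatment, each comparing 2 libraries labelled NIK KO with 2 WT libraries. Salmon 1.4.0, DESeq2 1.32.0 and build GRCm39 are named, without order or settings, in the submitters' processing notes. For each gene the tables deposited by the authors give, per the file headers, a base mean (a mean normalized count, treated as a signal), a log2 fold change with its SE, a Wald score, a p-value and an adjusted p-value. DESeq2 left 551 genes with IL-4 without an adjusted p. No count per library was in them, so depth and replicate spread are unknown. The labels give each mouse's number; p-values rest on 2 mice per group.

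Group means were computed from base mean and fold change with equal group sizes; 95% intervals are normal. The difference between treatments was tested across all genes by a z test, two-sided, with Benjamini-Hochberg adjustment. IL-4 to PBS errors are approximate, each table's SE being split equally between genotypes. Calls used an adjusted p of 0.05. The script was tested on simulated data. Of each pathway list, the text names genes at an unadjusted p below 0.05 and the 2 largest Wald scores per table at base mean 10 or more; of each marker list, the 2 highest base means; others are said to be chosen later. A few genes that the rule names are not reported here. Where a symbol had several IDs, the higher base mean was used. Members and lists were chosen with earlier results of these data known. Python 3.11.15, pandas 2.3.3, scipy 1.17.1 and statsmodels 0.14.6 were used. Promoters came from RefSeq and transcript lengths from GENCODE M21 (GRCm38).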

Additional observations from a re-analysis of the deposited data

How the results depend on the processing

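None of the listed genes that an alternative kept was called under it, and 4 of 7 stood at least 2-fold higher with IL-4 under both scalings. Adjusting over genes of mean 100 or more kept 4 of the 7 with PBS and 6 with IL-4, and over genes of mean 10 or more 6 with PBS, 7 with IL-4 and 6 for the difference between treatments; all genes and re-centred fold changes kept 7. The t distribution with 2 degrees of freedom called 0 genes in either table (against 5 with PBS and 17 with IL-4), so the listed genes could not be called there and it says nothing of their stability. Adjusting over genes of mean 100 or more called 9 genes with IL-4 against 17, and an error correlation of 0.5 called 20 genes for the difference against 2. Over all of these the adjusted p of the listed genes (DESeq2 Wald or z test, Benjamini-Hochberg) lay between 0.9997 and 0.999995. The scalings moved the IL-4 levels of Nfatc1 and Atp6v0d2 by more than the SE of each gene's deposited fold change with IL-4, bringing Nfatc1 in labelled NIK KO to -0.06 and -0.10 (log2) and Atp6v0d2 in WT to 1.36 and 1.319; the other genes' levels moved by less than that SE. Scaling to the same median left 417 genes 2-fold higher against 655 as deposited. No paired analysis was possible because the deposited tables hold no value per library, and for the same reason no library could be left out in turn. Depth limits Ocstamp most, at a mean of 8.09 normalized counts with PBS.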
